A study of Mus musculus with 10 samples.

Results

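The interleukin-1 (IL-1) family genes described here are Il1a, Il1b, Il1rn, Il18, Casp1, Il1r1, Il1r2, Il1rap, Il18r1 and Il18rap, measured in mouse lung after instillation of house dust mite (HDM) extract with or without nafamostat. Their rows were found by gene symbol in the raw count tables, and all 10 were present among the 23930 targets of the panel. HDM sensitization raised 4 of these genes by more than 2-fold: the decoy receptor Il1r2 (13.5-fold), the receptor antagonist Il1rn (10.8-fold), the agonist Il1b (6.68-fold) and the protease gene Casp1 (3.12-fold). Il1a, Il18 and the accessory chain Il1rap had fold values between 0.964 and 1.03, none of which passed the test. After nafamostat treatment, the same 4 genes were still above the PBS level by more than 2-fold. Over all targets tested, 7.28% passed as higher at 2-fold or more with HDM against PBS and 4.62% with HDM + nafamostat against PBS. None of the 10 genes passed the test against HDM alone, where only 0.951% of all targets passed as higher and 1.97% as lower.

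IL-1α and IL-1β act on the receptor IL-1R1, which signals only after it recruits the accessory protein IL-1RAcP. IL-1Ra, the product of Il1rn, occupies IL-1R1 without bringing in the accessory protein, and IL-1R2 binds IL-1 but lacks the intracellular signalling domain. IL-1β and IL-18 are made as precursors that caspase-1 cuts within inflammasomes, and IL-18 signals through a pair of chains encoded by Il18r1 and Il18rap. In the airway these cytokines are known for calling in granulocytes and for shaping T cell and innate lymphoid responses.

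All mice were female BALB/c, aged 8 to 9 weeks, and each of the 10 libraries is a separate sample in the labels, with 4 in the PBS group, 3 in the HDM group and 3 in the HDM + nafamostat group. PBS or HDM was instilled into the nose 2 times per week for 3 weeks according to the methods and labels, while the figure legends of the study give 6 weeks. Each instillation carried 10 μg of HDM in 30 μl by the methods, whereas the labels write mg and ml. Nafamostat, a synthetic serine protease inhibitor, was injected intraperitoneally at 20 mg/kg 30 minutes ahead of each instillation, and lungs were taken 24 hours after the last one. Nafamostat was dissolved in 3% acetic acid in PBS by the methods, and whether the sequenced PBS and HDM mice were given that vehicle is not in their labels. RNA came from the upper portion of left lobes, which the methods describe as taken from separate experiments. Which libraries share an experiment is not known here, so a batch effect cannot be told apart. The RNA was read with the Ion AmpliSeq panel, which counts reads of 1 amplicon per gene. Because amplicons differ in how well they amplify, levels are compared between groups for the same gene and not between genes.

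Libraries of PBS mice totalled 5901279 to 7353792 counts, those of HDM mice 7105946 to 9354416 and those of HDM + nafamostat mice 8053532 to 9666354. Levels are given as CPM, counts brought to a common library total after TMM scaling (trimmed mean of M values), and changes as log2 fold changes from the quasi-likelihood test of edgeR, with Benjamini-Hochberg adjustment over all targets tested. Genes that reached both an adjusted p below 0.05 and a 2-fold difference are referred to as called, and those that reached the adjusted p at any fold as having passed. Markers of alveolar type 2 and club cells, which define lung epithelium, summed to 52970 to 81660 CPM over the 10 libraries. Some libraries also held reads of genes known mainly from other tissues, and the source of these reads was not tested. Olfactory and vomeronasal receptor targets summed to 1817 CPM in HDM replicate 3, 688.8 in PBS replicate 2 and 462 in HDM + nafamostat replicate 2. Each of these libraries also had counts for more targets than any other of its group (18015, 17288 and 17612). Liver genes summed to 209.8 CPM in HDM replicate 2, 112.8 in HDM + nafamostat replicate 2 and 106.3 in HDM replicate 1. The comparison of HDM + nafamostat with HDM was also run without HDM replicate 3 and HDM + nafamostat replicate 2.

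Il1b, which encodes the IL-1 that is released after caspase cleavage, rose with HDM. Its counts in the 4 PBS libraries were 71, 70, 98 and 112, and in the 3 HDM libraries 590, 626 and 807. On the CPM scale the groups did not overlap, with 13.1 ± 3.32 (SD, n = 4) in PBS mice and 87.1 ± 18.1 (SD, n = 3) in HDM mice. The log2 fold change, with its standard error (SE), was 2.74 (SE 0.199, adjusted p = 1.22e-07, edgeR). Il1a, whose product is active without caspase-1 and acts as an alarmin of damaged cells, lies next to Il1b and did not pass. It was at 15.3, 14.6, 13.2 and 16.1 CPM in the PBS libraries and at 16.4, 13.9 and 14.1 CPM in the HDM libraries, which overlap, and its log2 fold change was 0.00 with a 95% interval from -0.38 to 0.38.

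The genes of both agonists lie on the minus strand of chromosome 2 within 71.5 kb, Il1a at chr2:129299610-129309972 and Il1b at chr2:129364570-129371139 (mm10, which is GRCm38; GENCODE, 7 exons in the principal transcript of each). Because 1 of these neighbours was called and the other was not, the 300 bases around the annotated start of each are printed here from the RefSeq promoter table (GRCm38.p6), with 250 bases before the start and 50 after it, 5′ to 3′ along the gene. Capitals mark matches to any of 5 searched motifs, on either strand, with the first transcribed base as position 1.
Il1a, chr2:129309923-129310222, minus strand: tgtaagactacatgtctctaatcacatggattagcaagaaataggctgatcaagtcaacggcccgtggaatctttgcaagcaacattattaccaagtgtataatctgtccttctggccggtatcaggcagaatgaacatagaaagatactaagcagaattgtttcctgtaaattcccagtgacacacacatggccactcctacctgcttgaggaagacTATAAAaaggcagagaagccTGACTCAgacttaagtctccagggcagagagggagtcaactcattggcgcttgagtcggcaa
Il1b, chr2:129371090-129371389, minus strand: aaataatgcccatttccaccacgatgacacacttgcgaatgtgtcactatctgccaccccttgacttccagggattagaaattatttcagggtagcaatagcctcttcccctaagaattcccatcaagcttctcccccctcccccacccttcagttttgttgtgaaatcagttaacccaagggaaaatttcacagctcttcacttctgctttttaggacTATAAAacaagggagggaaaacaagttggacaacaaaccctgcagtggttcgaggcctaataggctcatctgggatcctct
The motifs searched were GGNNNTTCC (NF-kB), TGANTCA (AP-1), TTGCNNAA (C/EBP), TTCNNNNGAA (STAT6) and TATAAA for the TATA box. Of all 32851 promoters in the table, 18.5%, 7.81%, 10.8%, 6.95% and 13.6% held at least 1 match, in the same order. Both windows hold TATAAA just before the start, at -32 in Il1a and -31 in Il1b, and the window of Il1a also holds TGACTCA at -12. No other match was found in either window, and what lies outside them was not searched.

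Il1rn, the antagonist that occupies IL-1R1, had the largest fitted change with HDM among the 4 ligand genes. Its counts were 27, 22, 24 and 30 in PBS mice and 417, 293 and 270 in HDM mice. Every HDM library was thus above every PBS library, with means of 3.88 ± 0.85 CPM (SD, n = 4) and 41.6 ± 6.70 CPM (SD, n = 3). The change was 3.43 on the log2 scale (SE 0.209, adjusted p = 2.02e-08, edgeR). The gene has 5 exons and lies on the plus strand at chr2:24336853-24351494, at the end of a 198.3 kb stretch with 5 other IL-1 family genes. RefSeq gives 3 starts for Il1rn. The window of its most downstream start is shown because it holds matches to 3 of the searched motifs.
Il1rn, chr2:24345121-24345420, plus strand: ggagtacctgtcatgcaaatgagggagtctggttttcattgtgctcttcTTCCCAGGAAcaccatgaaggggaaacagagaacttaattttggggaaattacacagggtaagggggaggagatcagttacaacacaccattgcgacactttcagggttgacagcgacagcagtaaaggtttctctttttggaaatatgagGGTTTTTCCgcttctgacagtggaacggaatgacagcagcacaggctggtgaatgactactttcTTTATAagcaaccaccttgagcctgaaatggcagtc
The capitals are TTCCCAGGAA (STAT6) at -201, GGTTTTTCC (NF-kB) at -50 and TTTATA, the TATA box letters on the other strand, at 15. The window of the most upstream start holds GGCAGTTCC at -3 and TGAGTCA (AP-1) at -141.

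Il18 encodes the other cytokine cut by caspase-1. It was at 50.7, 29.9, 26.5 and 60.6 CPM in the PBS libraries and at 39.1, 37.2 and 44.2 CPM in the HDM libraries. The HDM values all lay within the PBS range, and the log2 fold change was -0.05 with a 95% interval from -0.56 to 0.45. PBS mice thus varied more among themselves than the 2 groups differed.

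Casp1, the protease of the inflammasome, rose with HDM. The PBS libraries held 59, 58, 52 and 51 counts and the HDM libraries 199, 146 and 256. The groups did not overlap, at 8.24 ± 1.22 CPM (SD, n = 4) and 25.6 ± 6.63 CPM (SD, n = 3). On the log2 scale Casp1 rose by 1.64 (SE 0.215, adjusted p = 4.57e-05, edgeR). Casp1 has 10 exons and lies at chr9:5298517-5307265 on the plus strand, and Il18 lies on the same chromosome at chr9:50554827-50581840. The promoter window of Casp1 held none of the 5 motifs.

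**Figure D1:**
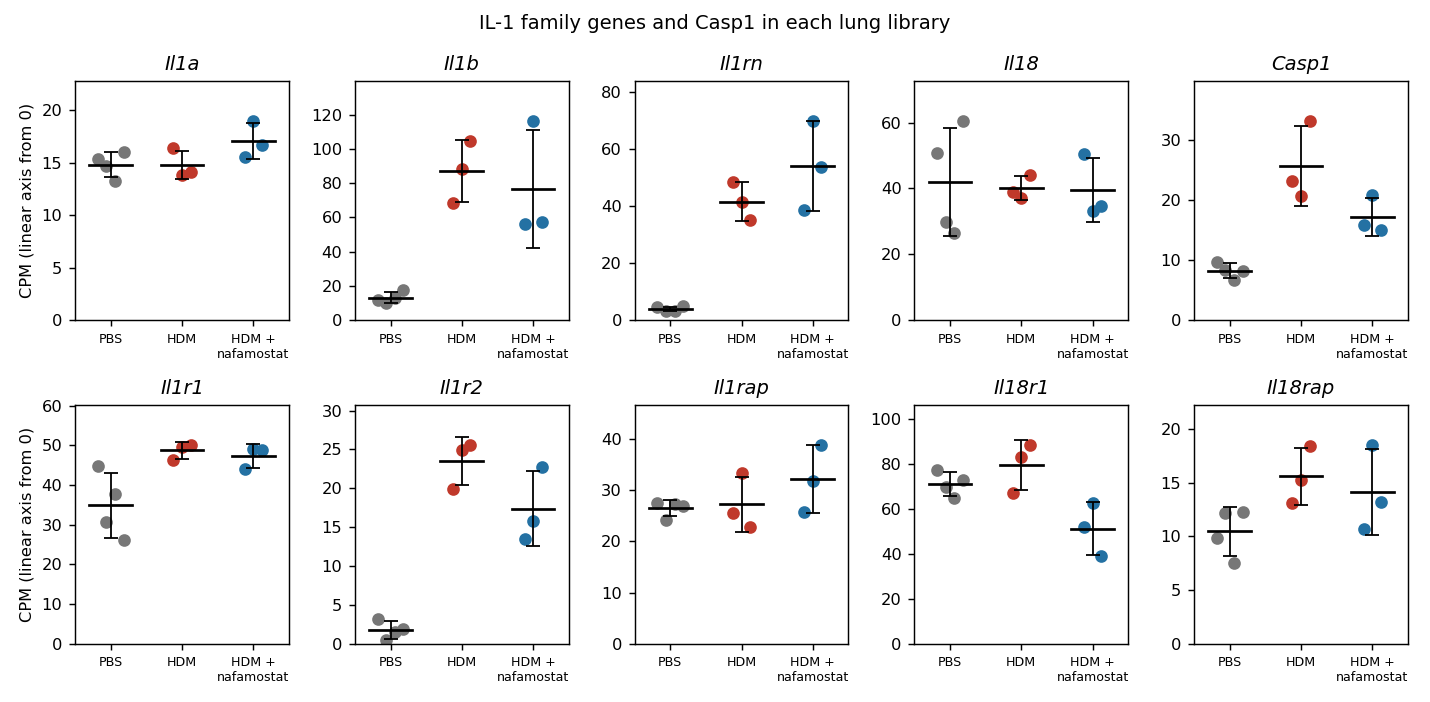
Level of each of the 10 genes in every library, in CPM after TMM scaling on a linear axis from 0; points are libraries, lines are group means and bars are 1 SD (n = 4, 3 and 3). Il1b, Il1rn, Casp1 and Il1r2 are higher in every HDM and every HDM + nafamostat library than in every PBS library, and Il18r1 is lower in all 3 HDM + nafamostat libraries (39.1 to 62.7 CPM) than in any other library.

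Among the receptors, Il1r2, the decoy that binds IL-1 without signalling, had the largest fitted change of the 10 genes. The PBS libraries held 19, 3, 12 and 12 counts, and the HDM libraries 172, 176 and 198. Means were 1.76 ± 1.11 CPM (SD, n = 4) and 23.5 ± 3.09 CPM (SD, n = 3). Il1r2 thus rose by 3.76 on the log2 scale (SE 0.339, adjusted p = 1.39e-06, edgeR). Its standard error was the widest among the 10 genes in this comparison, and PBS replicate 2 held only 3 counts. Without that library the log2 fold change was 3.44, the lowest value when any single library was left out.

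Il1r1, the signalling receptor that Il1r2 competes with, had a smaller fitted change, and the difference between the genes was not tested. It was at 44.9, 30.7, 37.9 and 26.1 CPM in the PBS libraries and at 46.4, 49.6 and 50.2 CPM in the HDM libraries. The groups did not overlap, although PBS replicate 1 came close to HDM replicate 1. The log2 fold change of 0.48 (SE 0.174) passed at an adjusted p of 0.0481 (edgeR), below 2-fold. This did not hold when any of 6 of the 7 libraries was left out (adjusted p between 0.0573 and 0.127), nor with scaling by library totals (0.122). Il1rap, the accessory chain that IL-1R1 needs in order to signal, was at 24.2 to 27.5 CPM in PBS mice and 22.9 to 33.4 CPM in HDM mice, with a log2 fold change of 0.04 and a 95% interval from -0.32 to 0.40.

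Neither chain of the IL-18 receptor passed with HDM. Il18r1, the chain that binds IL-18, was at 77.5, 69.7, 65.0 and 73.0 CPM in the PBS libraries and at 67.4, 83.1 and 88.8 CPM in the HDM libraries, which overlap. Il18rap, its signalling partner, was at 9.87, 12.2, 7.52 and 12.2 CPM in the PBS libraries and at 13.1, 15.3 and 18.4 CPM in the HDM libraries. Il18rap did not overlap between the groups, and its log2 fold change of 0.58 (SE 0.222) missed the threshold at an adjusted p of 0.0611 (edgeR).

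Il1r2, Il1r1, Il18r1 and Il18rap are 4 of the 6 IL-1 family receptor genes that stand in 1 row over 477.6 kb of chromosome 1 (chr1:40074079-40551705), all on the plus strand. The other 2 are Il1rl2, the receptor of IL-36, and Il1rl1, the receptor of IL-33. Along this row the log2 fold changes with HDM were 3.76 for Il1r2, 0.48 for Il1r1, 1.10 for Il1rl2, 2.23 for Il1rl1, 0.17 for Il18r1 and 0.58 for Il18rap. The called genes Il1r2, Il1rl2 and Il1rl1 thus stand in this row among 3 genes that were not called. The RefSeq window of Il1r2, the receptor with the largest change, is shown for its single motif match. The start it uses lies inside the GENCODE gene, which begins further upstream at chr1:40074079.
Il1r2, chr1:40085843-40086142, plus strand: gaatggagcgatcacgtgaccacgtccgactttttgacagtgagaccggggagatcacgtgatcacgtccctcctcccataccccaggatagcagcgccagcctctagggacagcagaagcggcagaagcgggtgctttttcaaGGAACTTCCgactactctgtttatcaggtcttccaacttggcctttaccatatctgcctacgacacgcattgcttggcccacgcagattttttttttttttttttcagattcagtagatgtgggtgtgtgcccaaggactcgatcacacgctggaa
The capitals at -106 match the NF-kB letters on both strands (GGAACTTCC). Il18rap holds such a 2-strand match too, at -19. In all, 6 of the 15 windows of the 10 genes held an NF-kB match, 6 STAT6, 4 TATA box, 2 AP-1 and 1 C/EBP. The shares over all promoters were 18.5%, 6.95%, 13.6%, 7.81% and 10.8%, in the same order. Several of these windows overlap each other, so the counts are of windows and not of separate sites. The same STAT6 match is counted in more than 1 window of Il18r1, and likewise in Il1rn, so these counts cannot be read as an excess over all promoters.

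**Figure D2:**
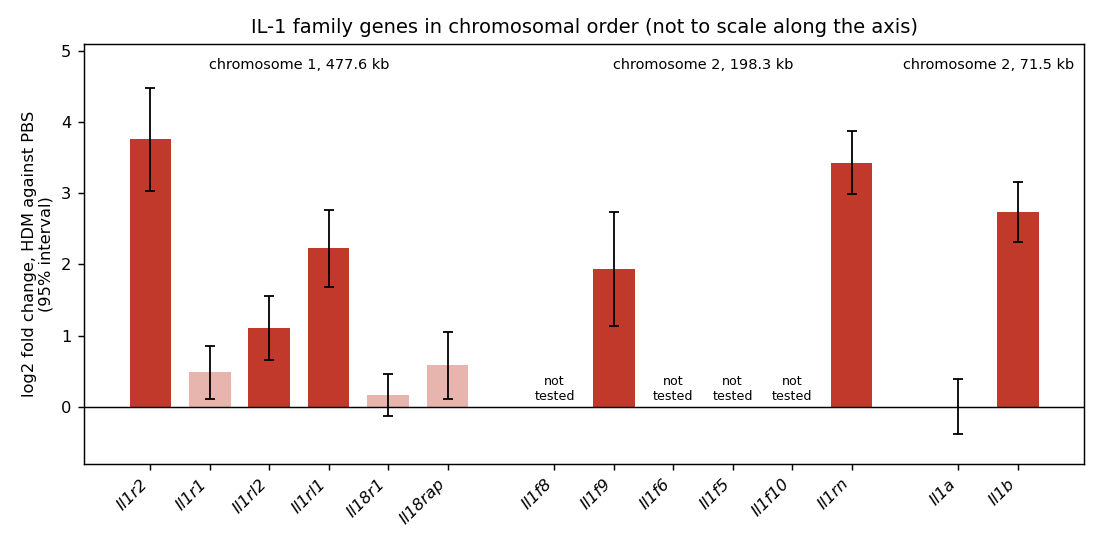
Log2 fold change of HDM against PBS for the IL-1 family genes of 3 genomic clusters, placed in chromosomal order with even spacing; bars are the fitted changes, whiskers 95% intervals, and dark bars are called genes. In the chromosome 1 row Il1r2 (3.76) stands beside Il1r1 (0.48), and in the chromosome 2 pair Il1b (2.74) stands beside Il1a (0.00).

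Of the 10 genes, 4 were called higher and 0 lower with HDM, where 7.28% of the 14608 targets tested were called higher and 4.10% lower. At an adjusted p under 0.05 and any fold, 5 of the 10 passed as higher and 0 as lower, against 15.3% and 14.2% of all targets. The median log2 fold change was 0.53 over the 10 genes and 0.02 over all targets tested. In bulk lung RNA, more cells that carry a transcript and more transcript per cell cannot be told apart. Marker genes of several infiltrating cells rose in the same libraries: 7 of 12 neutrophil markers, 12 of 14 monocyte and macrophage markers, 6 of 9 dendritic cell markers and 6 of 6 eosinophil markers passed as higher. Neutrophil markers summed to 244 to 418 CPM in the PBS libraries and 1105 to 1520 CPM in the HDM libraries. Monocyte and macrophage markers summed to 6755 to 11430 and 11620 to 18620 CPM. Most of that sum was Lyz2 alone, at 6363 to 11030 and 10250 to 16710 CPM, so the sum says little about the other markers. Liver genes, 10 of 14 of which passed as higher, summed to 3.78 to 37.1 CPM in PBS and 37.6 to 209.8 CPM in HDM libraries. The part of these cells and of liver RNA in the changes of Il1b, Il1rn, Il1r2 and Casp1 was not tested.

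**Figure D3:**
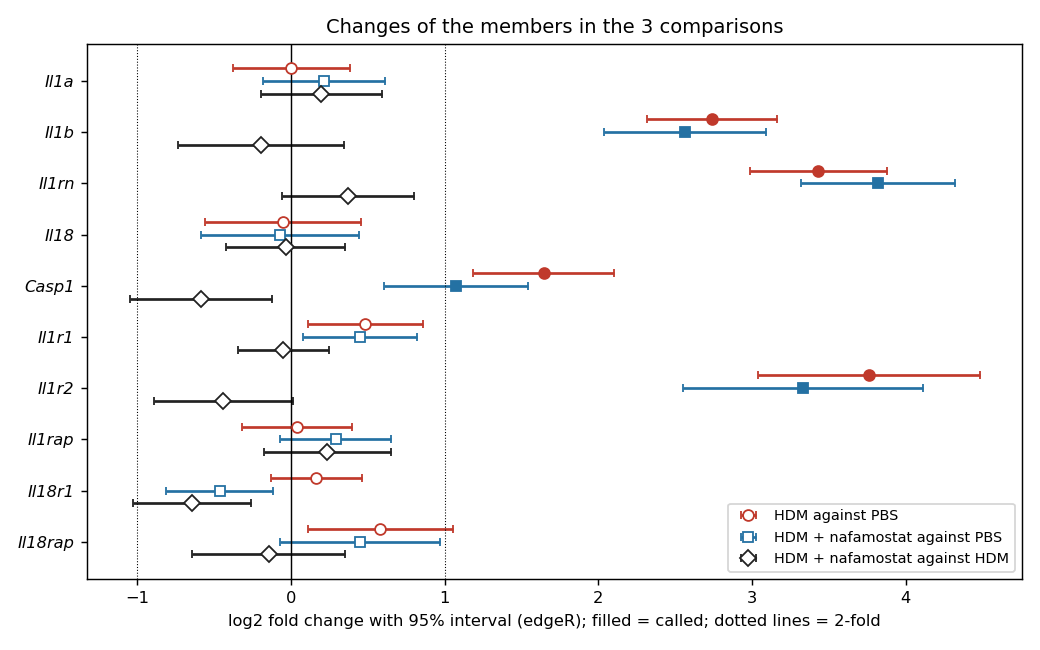
Log2 fold changes of the 10 genes in the 3 comparisons, with 95% intervals from edgeR; filled symbols are called genes and dotted lines mark 2-fold. The 4 genes called against PBS with HDM are called against PBS with HDM + nafamostat as well, while the diamonds for HDM + nafamostat against HDM lie between -0.65 and 0.37.

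To assess how nafamostat affected these genes, HDM + nafamostat was compared with HDM alone. None of the 10 genes was called in either direction by edgeR, with 2 at an unadjusted p under 0.05 (Il18r1 and Casp1), and DESeq2 called 0 as well. Of the 14413 targets tested, 0.104% were called higher and 0.729% lower. At any fold, 0 of the 10 genes passed, beside 0.951% of all targets as higher and 1.97% as lower. Without HDM replicate 3 and HDM + nafamostat replicate 2, again 0 of the 10 were called and 0 passed, with adjusted p from 0.055 for Il18r1 (log2 fold change -0.73) to 0.962 for Il1rn.

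Il18r1 had the smallest p of the 10 genes. The 3 HDM + nafamostat libraries held 52.1, 62.7 and 39.1 CPM, all below the lowest HDM library at 67.4 CPM. Its log2 fold change against HDM was -0.65 (95% interval -1.03 to -0.26, adjusted p = 0.0664, edgeR), and it passed at any fold with DESeq2 (adjusted p = 0.0159), with no filter (0.00377), with the filterByExpr filter (0.0461) and without HDM + nafamostat replicate 2 (0.0247). With HDM + nafamostat replicate 3 left out instead, the adjusted p was 0.26. The 3 HDM + nafamostat libraries also lay below every PBS library, the lowest of which held 65.0 CPM. The log2 fold change of Il18r1 against PBS was -0.46 (adjusted p = 0.0709, edgeR, and 0.0328 to 0.319 with 1 library left out). Il18rap, its partner chain, was at 10.7, 18.5 and 13.2 CPM, with 1 library below, 1 within and 1 just above the HDM range of 13.1 to 18.4 CPM. T cell and natural killer cell markers, cells known to carry the IL-18 receptor, gave 0 of 10 and 0 of 7 genes that passed in either direction against HDM. Il18r1 itself did not pass with edgeR, so this count does not set the markers apart from it. The T cell markers ran from -0.68 for Cd3g (adjusted p = 0.0604, edgeR) to 0.32 for Cd5 on the log2 scale, with a median of -0.235. The median of the natural killer cell markers was -0.102. The summed T cell markers were at 326 to 338 CPM after nafamostat and 295 to 504 CPM with HDM, and the natural killer cell markers at 107 to 171 and 124 to 178 CPM. Their part in the level of Il18r1 was not tested.

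Casp1 was at 15.8, 20.8 and 14.99 CPM after nafamostat, with 1 library just above the lowest HDM library at 20.6 CPM. Its log2 fold change against HDM was -0.59 (95% interval -1.05 to -0.12, adjusted p = 0.14, edgeR). Against PBS it remained called, at 1.07 (SE 0.222, adjusted p = 0.00302), although it was below 2-fold without PBS replicate 3 (0.98) or without HDM + nafamostat replicate 2 (0.90). All 3 values lay above the PBS range of 6.74 to 9.71 CPM.

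For Il1b the value after nafamostat depended on 1 library. The HDM + nafamostat libraries held 441, 1067 and 540 counts, or 56.1, 116 and 57.0 CPM, so that 2 lay below every HDM library and 1 above every HDM library. The log2 fold change against HDM was -0.20 (95% interval -0.73 to 0.34, adjusted p = 0.692, edgeR). Without HDM + nafamostat replicate 2 it was -0.64 (adjusted p = 0.0625), and without both that library and HDM replicate 3 it was -0.48 (adjusted p = 0.171). Against PBS the log2 fold change was 2.56 (SE 0.25, adjusted p = 1.48e-06).

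Il1rn was at 38.5, 69.9 and 53.7 CPM after nafamostat, and 2 of these values lay above every HDM library. Replicate 2 was the highest for Il1rn as it was for Il1b. The log2 fold change against HDM was 0.37 (95% interval -0.06 to 0.80, adjusted p = 0.297, edgeR), and it was 0.03 without HDM replicate 3 and HDM + nafamostat replicate 2. Against PBS it was 3.82 (SE 0.238, adjusted p = 4.02e-09), so the order of the group means was PBS, HDM and then HDM + nafamostat, and the last 2 were not separated by the test.

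Il1r2 was at 13.5, 15.8 and 22.8 CPM after nafamostat, where the highest library overlapped the HDM range of 19.9 to 25.6 CPM. Its log2 fold change was -0.44 against HDM (95% interval -0.89 to 0.01, adjusted p = 0.245, edgeR) and 3.33 against PBS (SE 0.371, adjusted p = 7.65e-06). Il1r1 was at 44.0, 49.2 and 49.0 CPM, a log2 fold change against HDM of -0.05 with a 95% interval from -0.34 to 0.25. Of the remaining genes, Il1a (15.5 to 19.0 CPM), Il1rap (25.8 to 39.0 CPM) and Il18 (33.3 to 50.6 CPM) had log2 fold changes against HDM of 0.20, 0.24 and -0.04, none of which passed.

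In the comparison with PBS, 4 of the 10 genes were called higher and 0 lower after HDM + nafamostat, where 4.62% of the 14079 targets tested were called higher and 1.14% lower. At any fold the counts were again 4 and 0, beside 8.73% and 5.53% of all targets. The 2 comparisons with PBS share the same 4 PBS libraries, so they are not separate evidence. Neutrophil markers summed to 730 to 950 CPM in the HDM + nafamostat libraries, below the HDM libraries and above the PBS libraries, and 1 of the 12, Retnlg, passed as lower against HDM. Most of the lower sum lay in Retnlg, S100a9 and S100a8. Their means were 515, 332 and 169 CPM with HDM and 266, 163 and 83.7 CPM after nafamostat. Ltf went the other way, from 95.4 to 137 CPM, and the means of Mmp8, Mmp9 and Ngp were also not lower. The sum thus says little about the other neutrophil markers. Monocyte and macrophage markers summed to 9931 to 11820 CPM, again mostly Lyz2 (8354 to 10880 CPM). None of these markers passed against HDM, and 11 of the 14 tested passed as higher against PBS. The part of either cell type in the values after nafamostat was not tested.

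Agonist and antagonist can be set against each other within a library, which removes the scaling between libraries. The log2 ratio of Il1rn to Il1b counts was -1.38, -1.65, -2.01 and -1.88 in the PBS libraries. It was -0.50, -1.09 and -1.58 with HDM, overlapping the PBS range. After nafamostat it was -0.54, -0.74 and -0.08, above all PBS libraries and overlapping HDM. The means were -1.73 ± 0.28 (SD, n = 4), -1.06 ± 0.54 (SD, n = 3) and -0.45 ± 0.33 (SD, n = 3). Although replicate 2 of the HDM + nafamostat group had the highest level of both Il1b and Il1rn, its ratio of -0.74 was the lowest of its group.

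The decoy receptor was also set against the signalling receptor. The log2 ratio of Il1r2 to Il1r1 counts was -3.81, -5.92, -4.55 and -3.72 in the PBS libraries, -1.22, -0.99 and -0.97 with HDM, and -1.70, -1.63 and -1.10 after nafamostat. All 6 HDM-treated libraries thus lay above all 4 PBS libraries, and the HDM and HDM + nafamostat ranges overlapped. The ratios are of reads of different amplicons, so their change between groups can be read but not their size, and they are given with no test.

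**Figure D4:**
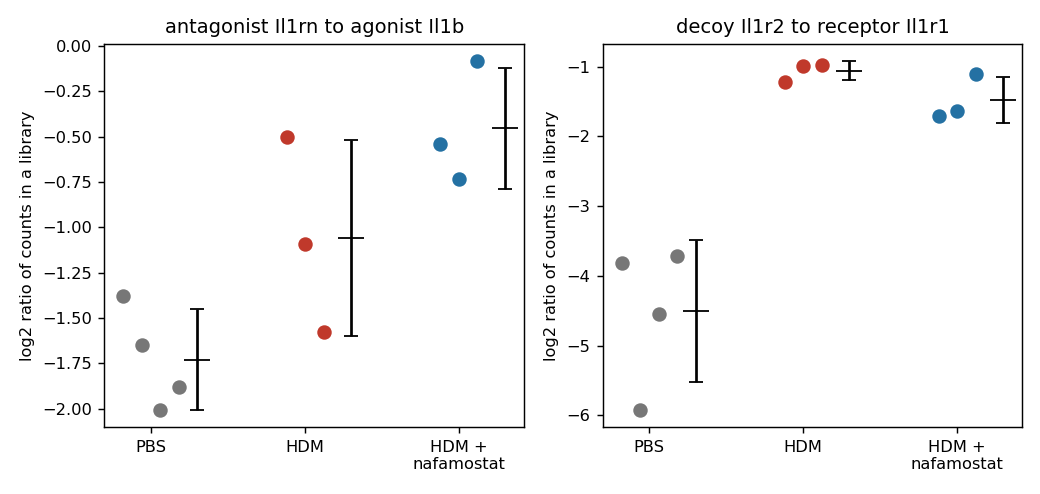
Log2 ratio of counts within each library for Il1rn to Il1b (left) and Il1r2 to Il1r1 (right); points are libraries, and the line with whiskers beside them is the group mean with 1 SD. The left panel shows group means of -1.73, -1.06 and -0.45 with overlap between neighbouring groups, and the right panel shows all 6 HDM-treated libraries (-1.70 or higher) above the PBS libraries (-3.72 or lower).

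Other ligands of the family were at 0 or a few counts except 2. Il33, the alarmin of epithelial and stromal cells, rose from 62.7 ± 21.1 CPM (SD, n = 4) to 288 ± 26.6 CPM (SD, n = 3) with HDM (log2 fold change 2.20, adjusted p = 1.44e-06, edgeR). Il1f9, the panel's name for IL-36γ, rose from 4.17 ± 1.99 to 16.1 ± 6.96 CPM (1.93, adjusted p = 0.00129). Il1f5, Il1f6, Il1f8 and Il1f10 did not reach the 30 counts needed for a test. After nafamostat Il33 was at 220 ± 19.7 CPM, a log2 fold change against HDM of -0.40 with an adjusted p of 0.103, although the groups did not overlap.

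Of the other receptors and binding proteins, 3 of the 4 tested passed as higher with HDM, beside 15.3% of all targets. Il1rl1, which also marks type 2 innate lymphoid cells and mast cells, rose from 4.00 ± 1.28 to 18.8 ± 2.20 CPM (2.23, adjusted p = 1.30e-05, edgeR). Il18bp, the secreted protein that traps IL-18, rose by 0.64 on the log2 scale (adjusted p = 0.0376), and Sigirr, an inhibitory receptor of the family, had a value of -0.41 (adjusted p = 0.106). Il1rl2 rose by 1.10 with HDM (adjusted p = 0.00114) to 13.8 ± 1.76 CPM, and it was at 6.81 ± 2.94 CPM after nafamostat and 6.40 ± 0.44 CPM in PBS mice. Its log2 fold change against HDM was -1.01 without overlap, and it missed the threshold at an adjusted p of 0.0718.

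Genes of inflammasomes and of cytokine processing were more often higher than lower with HDM. Of 17 tested, 9 passed as higher and 1 as lower, beside 15.3% and 14.2% of all targets. Their median log2 fold change was 0.90. Aim2, a sensor of cytosolic DNA, rose by 2.40 (adjusted p = 1.00e-05, edgeR), and Pycard, the adaptor ASC that links sensors to caspase-1, rose by 1.69 (adjusted p = 1.77e-05). Casp4, known in the mouse as caspase-11 and a sensor of lipopolysaccharide, rose by 1.21 (adjusted p = 3.82e-05). Nlrp3, the sensor most studied for IL-1β, was at 6.85 ± 1.36 CPM in PBS and 9.61 ± 1.98 CPM in HDM libraries (adjusted p = 0.158). Txnip, a protein that binds thioredoxin, was the single gene that passed as lower (-0.50, adjusted p = 0.01).

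Pycard was the single gene of this list that passed against HDM after nafamostat, where 1.97% of all targets passed as lower. Its level was 14.3 ± 3.75 CPM in PBS (SD, n = 4), 45.9 ± 5.59 in HDM (SD, n = 3) and 27.9 ± 5.72 after nafamostat (SD, n = 3). The log2 fold change against HDM was -0.73 (SE 0.177, adjusted p = 0.0426, edgeR), below 2-fold. Aim2 and Naip5, a sensor of bacterial flagellin, were at -0.90 and -0.73 and did not pass (adjusted p = 0.12 and 0.108), while Casp4 was at 0.11. In the comparison with PBS, 6 of the 17 passed as higher and 0 as lower, beside 8.73% and 5.53% of all targets.

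Serine proteases that can also cut precursors of the family, from neutrophils, mast cells and lymphocytes, did not pass in any comparison. Of the 8 listed, 5 were tested. The neutrophil elastase gene Elane had 0 counts in all but 1 library, and Prtn3 and Ctsg were too low to test. Among mast cell proteases Mcpt4 was at 3.77 ± 3.76 CPM in PBS and 1.15 ± 0.685 CPM in HDM libraries (adjusted p = 0.135, edgeR), and Tpsb2, a mast cell tryptase, was at 4.52 ± 0.704 CPM with HDM and 2.22 ± 0.501 CPM after nafamostat (adjusted p = 0.145). Transcript levels do not measure the activity of these enzymes. The paper describes nafamostat as an inhibitor of mast cell tryptase that can also affect other serine proteases, mainly at higher concentrations. Which of the listed enzymes it acted on here was not tested.

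Of 21 genes tested in the shared signalling chain below the IL-1 and IL-18 receptors, 3 passed as higher and 2 as lower with HDM, which is near the 15.3% and 14.2% over all targets. Their median log2 fold change was 0.11. Myd88, the adaptor that both receptors use, rose from 34.5 ± 4.10 to 63.6 ± 1.33 CPM (0.89, adjusted p = 0.00022, edgeR) and was at 63.9 ± 4.16 CPM after nafamostat. Nfkbiz, a nuclear protein that IL-1 induces, rose by 1.09 (adjusted p = 4.98e-05), and Nfkb2, a subunit of NF-kB, by 0.53 (adjusted p = 0.00827). The genes that passed as lower were Rela, another NF-kB subunit (-0.46, adjusted p = 0.0132), and the ubiquitin ligase Traf6 (-0.39, adjusted p = 0.0454). None of the 21 passed between HDM + nafamostat and HDM.

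Genes that IL-1 is known to induce in other settings were mostly higher with HDM. Of 19 tested, 16 passed as higher and 0 as lower, beside 15.3% and 14.2% of all targets. Their median log2 fold change was 1.65. Other stimuli induce these genes too. Saa3, an acute-phase serum amyloid, was at 3.30 ± 1.02 CPM in PBS and 915 ± 420 CPM in HDM libraries (8.14, adjusted p = 4.71e-10, edgeR). Cxcl5, a chemokine for neutrophils, was at 0.572 ± 0.288 and 116 ± 34.0 CPM (7.66, adjusted p = 1.31e-10). Lcn2, an iron-binding protein of epithelium and neutrophils, and Ccl2, a monocyte chemokine, rose by 3.41 and 4.27 (adjusted p = 9.38e-10 and 9.88e-08). The 3 that did not pass were Ptgs2, Icam1 and Nos2.

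After nafamostat, 2 of the 19 passed as lower against HDM and 0 as higher, beside 1.97% and 0.951% of all targets. Ccl20, which attracts dendritic cells and lymphocytes through CCR6, was at 3.05 ± 0.723 CPM in PBS (SD, n = 4), 9.34 ± 2.14 in HDM (SD, n = 3) and 3.26 ± 1.47 after nafamostat (SD, n = 3), a log2 fold change against HDM of -1.51 (adjusted p = 0.0377, edgeR). Cxcl5 was at 60.7 ± 20.3 CPM after nafamostat (-0.94, adjusted p = 0.0488). Against PBS, 15 of the 19 still passed as higher, beside 8.73% of all targets. Of the 6 genes listed for IL-18, alone or with IL-12, 1 passed as higher with HDM and 1 as lower, near the 15.3% and 14.2% over all targets. The higher gene was Il13, at 0 counts in every PBS library and 5.12 ± 0.771 CPM in HDM libraries. The paper counts IL-13 among Th2 (T helper 2) cytokines and reports that their levels in lavage fluid did not rise with HDM. That is a measure of protein outside the tissue, while the counts here are of lung RNA. Whether IL-18 had a part in the rise of Il13 was not tested. The lower gene was Prf1, the perforin of cytotoxic cells (-1.38, adjusted p = 0.0039, edgeR). None of the 6 passed against HDM after nafamostat. Il13 was then at 1.80 ± 0.574 CPM, without overlap with HDM (-1.51, adjusted p = 0.0578, edgeR). Ifng, also on this list, was at 0.981 ± 0.686 CPM in PBS and 2.52 ± 1.29 CPM in HDM libraries and did not pass (adjusted p = 0.175).

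**Figure D5:**
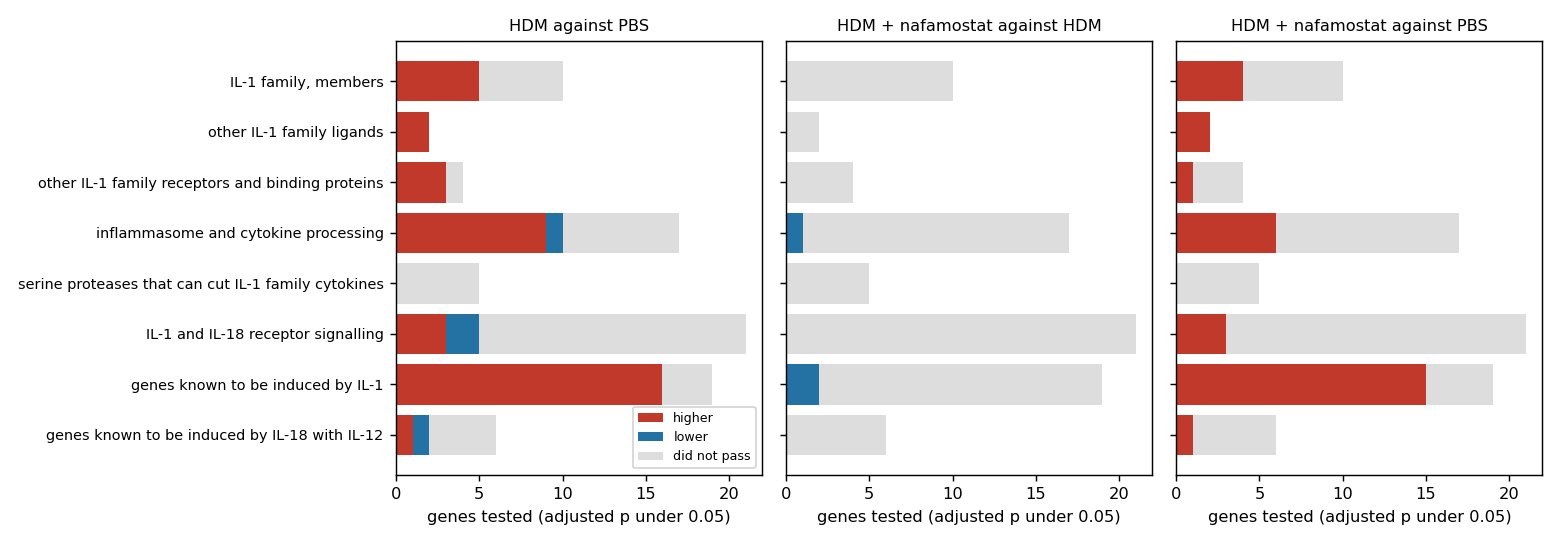
Number of genes tested in each list of the IL-1 pathway that passed as higher or lower at an adjusted p under 0.05, or did not pass, for the 3 comparisons. With HDM against PBS the IL-1-induced list has 16 of 19 genes higher and the serine protease list 0 of 5, and with HDM + nafamostat against HDM the coloured bars are 1 inflammasome gene and 2 IL-1-induced genes, all lower. The list labelled for IL-18 with IL-12 includes Il13, its gene that passed as higher with HDM.

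For each of the 4 called genes, the 3 targets with the most similar pattern were taken by the root mean square difference of log2 CPM relative to the PBS mean, over the 10 libraries and 10978 targets. Il1b was closest to Ch25h (0.302), an enzyme that makes 25-hydroxycholesterol, then to Cd300lf (0.327), a receptor of myeloid cells, and Cyp4f18 (0.330), a cytochrome that inactivates leukotriene B4. Il1rn was closest to Serpina3n (0.466), a serine protease inhibitor, Lcn2 (0.479) and Pigr (0.509), the epithelial transporter of IgA. For Il1r2 the closest were the chemokines Cxcl13 (0.486), Ccl24 (0.531) and Ccl9 (0.562). The closest to Casp1 were Lcp2 (0.179), an adaptor of leukocyte signalling, Naip5 (0.184) and Slfn2 (0.186). Distances were not scaled by the size of a gene's change, so they are not compared between the 4 genes. The distances are on the log2 scale and describe these 10 libraries, which share the HDM response, and they carry no test.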

How the data were processed

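Lung RNA of 10 mice was read with the Ion AmpliSeq Transcriptome Mouse panel. The files deposited by the authors hold raw counts per amplicon, not normalized, on the genome build mm10 per the labels; aligner and counter settings are not given in the sources used here. A total of 27 symbols changed by a spreadsheet were read back from the amplicon names. Each pair of groups was tested on its own libraries with edgeR 4.0.16 in R 4.3.3 (TMM, quasi-likelihood F test, at least 30 counts summed over the pair's libraries), with Benjamini-Hochberg adjustment over all targets tested. CPM for levels used TMM factors over all 10 libraries. Ratios used counts plus 0.5, and the nearest targets a mean of at least 5 CPM and a prior count of 2. The code was tested on simulated data. The members and lists were chosen with earlier results of these data known. Lists name up to 4 genes by smallest p; Nlrp3, Traf6, Ptgs2, Icam1, Nos2, Retnlg, the untested ligands and proteases, and a gene's values in a comparison other than the one that named it, were added after values were seen. Alternatives were median-of-ratios factors, library totals, DESeq2 1.42.0, no filter, the filterByExpr filter, 1 fit of all groups, a replicate block, no fold threshold and each library left out. No 2 libraries of a group were duplicates (chi-square per target 7.87 to 23.7). P-values measure the spread between these samples, which may be technical in part, and reads carry no molecular identifiers.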

Additional observations from a re-analysis of the deposited data

Results flagged for a closer look

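Of 12 sets of values from the PBS group that were examined for a sample far from the rest, the 10 gene levels and the 2 ratios, 1 stood out. Il1rap was at 24.2 CPM in PBS replicate 2, while the other 3 PBS libraries lay between 27.0 and 27.5 CPM. Chance flags about 1 in 20 such sets. The HDM libraries of Il1rap spanned 22.9 to 33.4 CPM, so that the value lies within the range of the series.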

How the results depend on the processing

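The count of called genes among the 10 was 4 with HDM against PBS, 0 with HDM + nafamostat against HDM and 4 with HDM + nafamostat against PBS under the other scalings, filters, DESeq2, the fit of all groups and the replicate block, and 5, 0 and 4 with no fold threshold. With 1 library left out the counts were 4 to 4, 0 to 0 and 3 to 4; the gene lost was Casp1 (0.982 without PBS replicate 3, 0.903 without HDM + nafamostat replicate 2). Same-numbered libraries correlated at -0.182 to 0.121 and libraries with different numbers at -0.276 to 0.278. These values show no pairing by replicate number, but they cannot exclude a batch shared by some libraries. With the replicate block, 5 targets were called higher and 52 lower in HDM + nafamostat against HDM, beside 15 and 105. Il1r1, which passed with HDM, was at 0.379 with the block (adjusted p = 0.115). Signs turned only for changes near 0 that never passed. With HDM against PBS these were, for library totals, Il1a (-0.087) and Il1rap (-0.044), for the replicate block Il18 (0.221), and, with 1 library left out, Il1a (-0.069 to 0.049), Il1rap (-0.125 to 0.140) and Il18 (-0.223 to 0.178). With HDM + nafamostat against HDM they were Il1r1 (0.000) and Il18 (0.011) for library totals, Il18rap (-0.396 to 0.010) and Il18 (-0.256 to 0.070) with 1 library left out, and Il18 (0.153) without the 2 libraries with most olfactory receptor counts, a setting added after seeing the data. With HDM + nafamostat against PBS it was Il18, at 0.186 for the replicate block and -0.295 to 0.152 with 1 library left out. The causes were not tested. The alternatives were run on the 10 genes, not on the pathway lists. With 3 or 4 libraries per group, the 95% interval of an uncalled gene such as Il1b after nafamostat still runs from -0.73 to 0.34 on the log2 scale.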
